A study of Mus musculus with 15 samples.

Results

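The response to ezetimibe was measured in the distal jejunum of Aster-B/C global knockout (KO) mice, as 4 libraries on an ezetimibe diet against 3 on the control diet, of 15 libraries in all. The KO libraries were chosen by genotype and diet from the labels, and the response was tested over all 14299 genes, of 26844 in the table, with a normalised count of at least 10 in at least 3 of the 15 libraries. All mice were male C57BL/6 aged 13 to 15 weeks, and all ate a low cholesterol diet holding 0.08% cholesterol. The ezetimibe groups had 0.01% ezetimibe added to it. Wild-type (WT) mice, 4 on each diet, gave the same drug contrast in the other genotype. The knockout is global rather than limited to the gut epithelium, and the labels do not name the deleted exons.

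Enterocytes take dietary cholesterol from the gut lumen through NPC1L1, the membrane protein that ezetimibe blocks. Aster proteins, the products of the Gramd1 genes, sit in the endoplasmic reticulum at contacts with the plasma membrane and move cholesterol between these membranes without vesicles. When sterol in the endoplasmic reticulum is low, INSIG proteins release the SCAP and SREBP-2 complex, and SREBP-2 then switches on the genes of cholesterol synthesis and uptake. When oxysterols are high, liver X receptors (LXR) instead switch on efflux genes such as Abca1.

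Recovered whole reads summed to between 14481221 and 19307079 in the 7 KO libraries. The first principal component among them held 37% of the variance and separated the diets, running from KO control replicate 2 to KO ezetimibe replicate 3. Enterocyte markers were high in every KO library, as in the labelled tissue: Lct, which encodes lactase, had 31062, 20088 and 30559.9 normalised counts in the control libraries and 43437, 37850.5, 37577 and 41963 in the ezetimibe libraries. The labels do not say which mice shared a cage, litter or day, so the p-values reflect only how these libraries vary. In whole tissue, fewer cells of a type and less RNA per cell cannot be told apart.

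Reads of both targeted genes remained in KO. Gramd1c, which encodes Aster-C, had 194, 119 and 115 normalised counts in KO control and 71.8, 144, 120.3 and 156 in KO ezetimibe, against 1383 ± 332 (SD, n = 4) in WT control. The KO groups overlapped for this gene, with a log2 fold change of −0.23 (SE 0.25, adjusted p = 0.605 by limma). Gramd1b, which encodes Aster-B, had 1247, 962 and 1229 in KO control and 1763, 1754, 2086 and 1744 in KO ezetimibe, against 3178 ± 868 (SD, n = 4) in WT control. Each ezetimibe library was above each control library for Gramd1b, but the log2 fold change of 0.69 missed the threshold (SE 0.17, adjusted p = 0.0574 by limma). In WT the Gramd1b response was 0.06, and the difference between the responses had an unadjusted limma p of 0.0191. Gramd1a, which encodes Aster-A and was not targeted, had 104, 166 and 144 in KO control and 185, 184, 243 and 184 in KO ezetimibe, a log2 fold change of 0.54 (SE 0.19, adjusted p = 0.11 by limma).

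Ezetimibe changed 104 genes in KO at a Benjamini-Hochberg adjusted p under 0.05 (called, by limma), 0.727% of those tested. Of these, 62 were higher and 42 lower on the drug (0.434% and 0.294%). Those that rose included 12 genes of sterol sensing and cholesterol synthesis, Npc1l1 and interferon-induced genes such as Igtp and Stat2. Those that fell included Abca1, 3 genes of the fatty acid oxidation list and macrophage genes such as C1qc. All 104 had KO groups that did not overlap, as did 2577 of all 14299 genes (18.0%). An unadjusted p under 0.05 was reached by 3278 genes (22.9%). The number called moved widely with single libraries: without KO control replicate 1, 2 or 3 it was 5, 9 and 425, and without KO ezetimibe replicate 1, 2, 3 or 4 it was 255, 16, 8 and 456. With both ends of the first component left out, KO control replicate 2 and KO ezetimibe replicate 3, only Abca1, Msmo1 and Csta2 were called. Abca1, Msmo1, Csta2, H2-Q10 and Insig1 were called in each of the 7 fits that left out 1 KO library, Nsdhl in 6 of 7, and 71 of the 104 in 3 of 7. On recovered reads edgeR called 87 of the 104, DESeq2 97 and voom 41.

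Gene length moved with the diet in KO. The median log2 fold change was −0.17 among 1048 genes with under 1 kb of exon sequence and 0.16 among 2225 genes with over 8 kb, against −0.08 and 0.00 in WT. The log2 level of the long genes relative to the short ones was −0.11, −0.41 and −0.14 in the KO control libraries and 0.09, 0.15, 0.31 and 0.03 in the KO ezetimibe libraries, with no overlap. Genes called higher had a median exon length of 5578 bases and genes called lower 1946.5, against 4007.5 over all genes tested. With a smooth trend on exon length removed from each library, an alternative added after the data were seen, 60 genes were called, 44 higher and 16 lower, and 53 of them were among the 104. The share of higher calls moved from 59.6% to 73.3%.

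**Figure D1:**
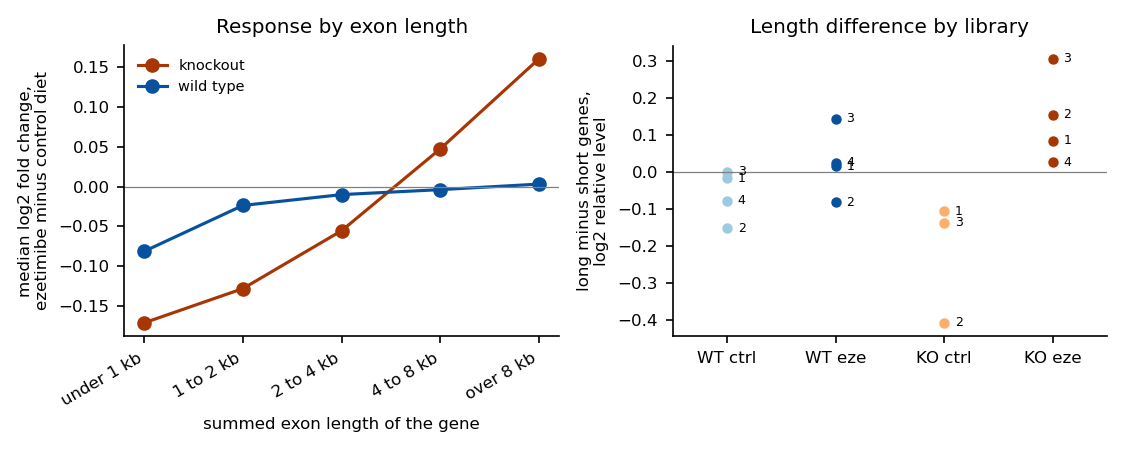
Left, the median log2 fold change (ezetimibe minus control diet) of tested genes in 5 classes of summed exon length, in knockout and wild type. Right, the median log2 level of genes over 8 kb minus that of genes under 1 kb in each library, each gene set relative to its mean over the 15 libraries, with replicate numbers. The knockout medians run from −0.17 to 0.16, and the 3 knockout control libraries lie below all 4 knockout ezetimibe libraries.

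In the 3 lists of sterol sensing and cholesterol synthesis, 12 of 32 tested genes were called higher in KO, beside 0.434% of all genes. None of the 32 was called lower. The comparison bears on sterol sensing when NPC1L1 is blocked in tissue that already lacks Aster-B and Aster-C. Among the 11 tested genes of SREBP-2 sensing, 3 were called higher, Insig1 and Srebf2 among them, and none lower, with a list median of 0.03 (log2) against 0.01 over all genes, and from −0.04 without KO ezetimibe replicate 3 to 0.22 without KO control replicate 3. Insig1, which encodes the sterol-dependent anchor that holds SREBP-2 in the endoplasmic reticulum and is itself an SREBP-2 target, had 1374, 1359 and 1184 normalised counts in KO control and 2721, 2479, 3013 and 2772 in KO ezetimibe. Every ezetimibe library was above every control library, with a log2 fold change of 1.07 (SE 0.15, adjusted p = 0.00613 by limma). Srebf2, the gene of SREBP-2, went from 1467, 1454 and 1450.3 to 2082, 2048, 2306 and 2545, a log2 fold change of 0.62 (SE 0.12, adjusted p = 0.0425 by limma). Srebf2 was called in 3 of the 7 fits without 1 KO library, and with the length trend removed it was no longer called (adjusted p = 0.0615 by limma).

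Among the 11 enzymes from acetyl-CoA to squalene epoxide, Mvk, Pmvk, Idi1, Fdft1 and Sqle were called higher and none lower. All 11 had positive log2 fold changes, 10 had an unadjusted p under 0.05, beside 22.9% of all genes, and the list median was 0.77. Mvk, mevalonate kinase, had 213, 243 and 222 normalised counts in KO control and 358, 338, 438 and 414 in KO ezetimibe, a log2 fold change of 0.77 (SE 0.12, adjusted p = 0.0155 by limma). The next kinase of the pathway, Pmvk, went from 240.2, 298 and 205 to 436, 403, 618 and 422. Its log2 fold change was 0.92 (SE 0.20, adjusted p = 0.0491 by limma), and KO ezetimibe replicate 3 was the highest library. Idi1, which isomerises the isoprenoid building block, went from 347, 377 and 380.2 to 648, 658, 943 and 857. Its log2 fold change was 1.06 (SE 0.19, adjusted p = 0.0271 by limma). Fdft1, squalene synthase, had a log2 fold change of 0.94 (SE 0.18, adjusted p = 0.0423 by limma), rising from 681 ± 95.8 (SD, n = 3) to 1303 ± 134 (SD, n = 4). Sqle, squalene epoxidase, had a log2 fold change of 1.29 (SE 0.24, adjusted p = 0.0355 by limma), rising from 855 ± 87.5 (SD, n = 3) to 2121 ± 487 (SD, n = 4). Hmgcs1, the first committed synthase, did not pass the test at 2478, 3237 and 2388 against 4318, 3805, 4504 and 5008, a log2 fold change of 0.71 (SE 0.17, adjusted p = 0.0549 by limma), although its groups did not overlap. Across the 7 fits without 1 KO library, between 0 and 6 genes of this list were called and the list median stayed between 0.71 and 0.85.

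Of the 10 tested enzymes from lanosterol to cholesterol, Cyp51, Msmo1, Nsdhl and Sc5d were called higher and none lower, and the list median was 0.53. Cyp51, lanosterol demethylase, had 1195, 1520.2 and 1178 normalised counts in KO control and 2582, 2524, 3765 and 3485 in KO ezetimibe, a log2 fold change of 1.24 (SE 0.21, adjusted p = 0.0192 by limma). Msmo1, which encodes the oxidase that removes the methyl groups at carbon C-4, went from 1245, 1558 and 1299.7 to 2993, 2538, 3333 and 2997. The log2 fold change of 1.12 had the smallest p of all genes after Abca1 (SE 0.11, adjusted p = 0.000236 by limma). Nsdhl, which acts beside Msmo1 in the same demethylation, went from 308, 285 and 339 to 579, 514, 727 and 605 (log2 fold change 0.96, SE 0.13, adjusted p = 0.00613 by limma). Sc5d, a desaturase near the end of the pathway, went from 2236, 2248 and 2672 to 3811, 3131, 3654 and 3205 (log2 fold change 0.53, SE 0.11, adjusted p = 0.0479 by limma). With the length trend removed, Sc5d was no longer called (adjusted p = 0.0597 by limma). Dhcr7, which acts late in the pathway, had a log2 fold change of 0.41 and missed the threshold (SE 0.11, adjusted p = 0.0578 by limma). Between 1 and 5 genes of this list were called across the 7 fits.

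**Figure D2:**
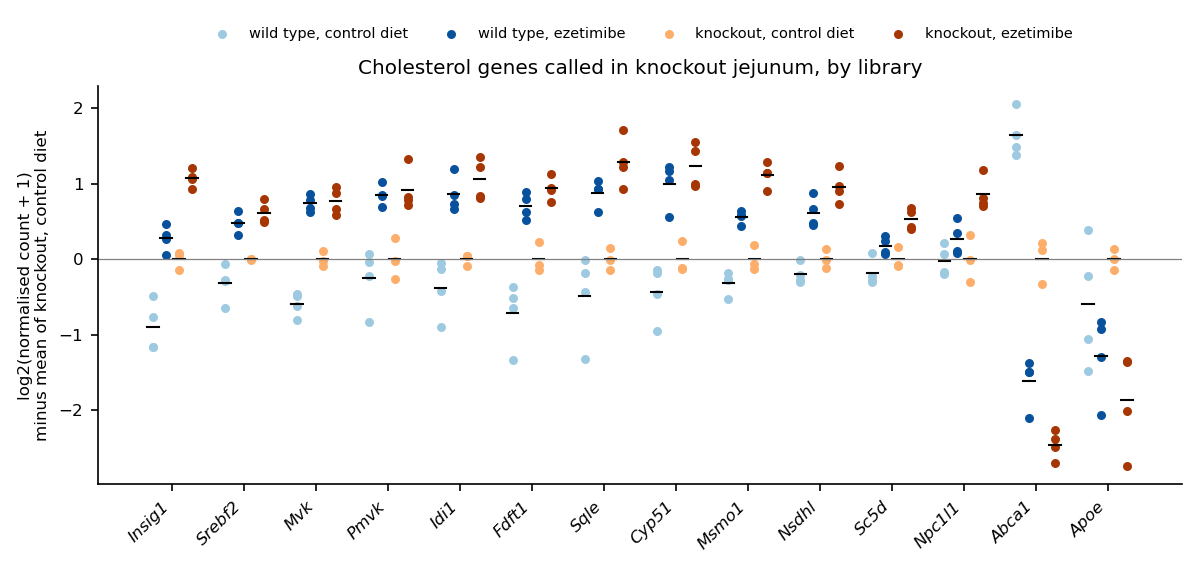
Points show each library's log2(normalised count + 1) for 14 of the cholesterol genes called in knockout, minus the mean of the knockout control libraries, and bars show group means. For all 14 genes the knockout ezetimibe libraries do not overlap the knockout control libraries, with Abca1 and Apoe lower and the other 12 higher. The same holds for all 104 called genes, and for 2577 of the 14299 genes tested (18.0%).

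The promoters of these enzymes were examined because the genes rose together. RefSeq windows on GRCm38.p6, the assembly of the mm10 build, were cut to the 250 bases upstream of each start, and both strands were searched. The CCAAT box, the letters CCAAT, binds NF-Y, a factor known to act beside SREBPs. It was found upstream of 6 of the 7 enzymes of the first list with a window and of 9 of 9 in the second. Among the genes of SREBP-2 sensing with a window, 4 of 8 had it. Over all 32851 windows of the reference, 33.8% held it, and 4203 of the 10424 tested genes with a window had a match. Among the 10 called sterol genes with a window, Npc1l1 included, all 10 had a match in at least 1 window. A strict sterol regulatory element, TCACNCCAC, had no match in their 11 windows and was in 1.05% of all windows. Over all enzymes with a window, called or not, it was in 1 of 8 windows of the first list and 0 of 11 of the second. In the sequences of Mvk (chr5:114444019-114444268, plus strand), Nsdhl (chrX:72918271-72918520, plus strand), Sc5d (chr9:42264301-42264550, minus strand) and Npc1l1 (chr11:6230246-6230495, minus strand), written 5′ to 3′ along the gene, capitals mark CCAAT on either strand (ATTGG where it lies on the other strand). These are matches of letters, not measured binding.
Mvk: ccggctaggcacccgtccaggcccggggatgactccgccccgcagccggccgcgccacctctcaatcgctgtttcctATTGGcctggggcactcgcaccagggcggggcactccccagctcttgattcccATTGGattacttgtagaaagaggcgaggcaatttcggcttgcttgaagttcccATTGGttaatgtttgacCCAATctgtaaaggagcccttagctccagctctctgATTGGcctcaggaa
Nsdhl: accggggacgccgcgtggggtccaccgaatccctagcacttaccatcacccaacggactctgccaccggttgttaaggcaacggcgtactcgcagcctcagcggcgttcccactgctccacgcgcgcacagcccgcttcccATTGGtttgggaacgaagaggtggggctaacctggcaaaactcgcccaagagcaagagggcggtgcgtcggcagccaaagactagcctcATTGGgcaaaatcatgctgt
Sc5d: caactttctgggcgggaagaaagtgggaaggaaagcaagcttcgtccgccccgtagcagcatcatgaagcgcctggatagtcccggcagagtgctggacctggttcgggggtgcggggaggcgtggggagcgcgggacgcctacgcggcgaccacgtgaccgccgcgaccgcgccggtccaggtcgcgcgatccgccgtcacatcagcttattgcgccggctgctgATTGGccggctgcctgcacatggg
Npc1l1: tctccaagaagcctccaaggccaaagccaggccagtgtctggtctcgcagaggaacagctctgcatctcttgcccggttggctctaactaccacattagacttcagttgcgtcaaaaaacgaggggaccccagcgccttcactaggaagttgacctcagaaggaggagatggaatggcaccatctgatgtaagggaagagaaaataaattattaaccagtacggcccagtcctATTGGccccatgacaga
Mvk held 5 matches and Nsdhl 2, while Sc5d and Npc1l1 held 1 each.

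Npc1l1 itself was the only called gene among the 19 tested genes of cholesterol uptake and esterification. It had 15432, 12626 and 19462 normalised counts in KO control and 27277, 26229, 35339.8 and 25474 in KO ezetimibe, so that each ezetimibe library was above each control library. The log2 fold change was 0.86 (SE 0.17, adjusted p = 0.0423 by limma), and it was called in 3 of the 7 fits without 1 KO library. In WT the Npc1l1 response was 0.29 (adjusted p = 0.999 by limma). The difference between the responses had an unadjusted limma p of 0.0239 and did not pass adjustment over all genes (adjusted p = 0.681). Npc1, which exports cholesterol from lysosomes, had 827, 447 and 842 in KO control and 1049.5, 1245, 1302 and 1294 in KO ezetimibe, and its log2 fold change of 0.85 missed the threshold (SE 0.22, adjusted p = 0.0578 by limma). Soat2, which esterifies cholesterol for chylomicrons, likewise had 4192 ± 422 (SD, n = 3) against 5882 ± 1049 (SD, n = 4) and did not pass (adjusted p = 0.0971 by limma). The list median was 0.18, and across the 7 fits it ran from 0.09, without KO ezetimibe replicate 3, to 0.20. No gene was called among 15 of chylomicron assembly or 15 of fatty acid synthesis, where Scd1, a desaturase, had a log2 fold change of −1.69 (SE 0.52, adjusted p = 0.0863 by limma) and overlapping groups.

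Abca1 fell with the smallest p of all genes tested. This LXR target, which passes cholesterol to apolipoproteins (ENSMUSG00000015243, mm10 chr4:53030787-53159895), had 601, 439 and 641 normalised counts in KO control and 115, 84.7, 105 and 98 in KO ezetimibe. The groups were far apart, with a log2 fold change of −2.46 (SE 0.19, adjusted p = 1.86e-05 by limma), and Abca1 was called under every alternative tried. In WT, Abca1 had 1759 ± 379 (SD, n = 4) on the control diet against 183 ± 37.9 (SD, n = 4) on the drug, and the log2 fold change was −3.26. The fall was smaller in KO by 0.80, with an unadjusted limma p of 0.00808 that did not pass adjustment. Apoe, an LXR target that macrophages also make, was the other called gene of the 12 in the LXR list and had 1138, 1267 and 1392 in KO control and 313, 494, 188 and 492 in KO ezetimibe. Its log2 fold change was −1.86 (SE 0.41, adjusted p = 0.0491 by limma), and it was called in 1 of the 7 fits without 1 KO library and not with the length trend removed (adjusted p = 0.061 by limma). Abcg5, which pairs with Abcg8 to export sterols across the apical membrane, had 5011, 3978 and 5356 in KO control and 3639, 2920.5, 3302 and 2609.7 in KO ezetimibe and missed the threshold (log2 fold change −0.62, SE 0.15, adjusted p = 0.0553 by limma). Its partner Abcg8 had overlapping groups and a log2 fold change of −0.26 (SE 0.21, adjusted p = 0.485 by limma). The LXR list median was −0.19, from −0.31 without KO control replicate 2 to −0.12 without KO ezetimibe replicate 4.

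In the list of PPAR alpha targets and fatty acid oxidation, 3 of 21 tested genes were called lower, beside 0.294% of all genes. None of the 21 was called higher. Negative log2 fold changes were found for 19, and 13 had an unadjusted p under 0.05, beside 22.9% of all genes. The list median was −0.48 in KO and −0.08 in WT. The list's mean log2 level was 11.60, 11.50 and 11.24 in the KO control libraries and 10.83, 10.90, 10.69 and 10.97 in the KO ezetimibe libraries, which did not overlap. The WT levels were 11.19, 11.16, 11.01 and 11.30 in the control group and 10.96, 11.01, 11.04 and 11.08 in the ezetimibe group. Thus 2 of the 3 KO control libraries were above all 8 WT libraries. The KO ezetimibe libraries other than replicate 4 were below all 8 WT libraries. Acot1, a cytosolic thioesterase that splits fatty acyl-CoA, had 335, 325 and 147 in KO control and 53.5, 83.6, 36.2 and 70.3 in KO ezetimibe (log2 fold change −2.10, SE 0.34, adjusted p = 0.0192 by limma). Acot2, its mitochondrial relative, went from 355, 336 and 259.9 to 102, 195, 120.3 and 178 (log2 fold change −1.12, SE 0.20, adjusted p = 0.0271 by limma). The sequences of both are near-identical, so their reads may be shared. Hadhb, the beta subunit of the mitochondrial trifunctional protein, moved little but steadily, from 4449, 4667 and 4156 to 3430.2, 3587, 3372 and 3382 (log2 fold change −0.36, SE 0.08, adjusted p = 0.0471 by limma). Acaa1b, a peroxisomal thiolase outside the list, fell, with a log2 fold change of −1.30 (SE 0.28, adjusted p = 0.0491 by limma). Ech1, Eci2 and Hsdl2, further genes of fatty acid breakdown chosen after their values were seen, were also called, at −0.46, −0.52 and −0.59. Acaa1b and Ech1 lost their calls with the length trend removed (adjusted p = 0.0635 and 0.0567 by limma). Cpt1a, which admits fatty acids to mitochondria, and Slc25a20, the carnitine carrier, had log2 fold changes of −0.46 and −0.48 and missed the threshold (adjusted p = 0.0645 and 0.0553 by limma). Between 0 and 8 list genes were called across the 7 fits, with the list median between −0.52 and −0.39.

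Ddah1, Gsta4 and Guca2a also fell. Ddah1, which breaks down methylated arginines that inhibit nitric oxide synthase, had 587, 446 and 459 in KO control and 175, 179, 228 and 274 in KO ezetimibe (log2 fold change −1.23, SE 0.20, adjusted p = 0.0192 by limma). WT values were 168 ± 34.7 (SD, n = 4) on the control diet and 144 ± 28.1 (SD, n = 4) on ezetimibe. Gsta4, a glutathione transferase, was the 1 called gene of 23 in drug metabolism, with 903, 889 and 695 in KO control and 403, 285, 472 and 576 in KO ezetimibe (log2 fold change −0.97, SE 0.20, adjusted p = 0.0478 by limma). Cyp3a11 ranged more widely, at 15089, 10235 and 5581 and 2909, 3745, 1060.2 and 4016, and did not pass (adjusted p = 0.168 by limma). Guca2a, which encodes guanylin, was the 1 called gene of 11 with distal expression and went from 8615, 8538 and 8029 to 5576, 5539, 5263 and 6189.7 (log2 fold change −0.57, SE 0.11, adjusted p = 0.0431 by limma). Pebp1, a Raf kinase inhibitor, and Dus2, a tRNA dihydrouridine synthase, also fell, with log2 fold changes of −0.79 and −0.92 (adjusted p = 0.0271 and 0.0431 by limma). With the length trend removed, Guca2a, which has 594 bases of exon, had a log2 fold change of −0.36 and was not called (adjusted p = 0.0908 by limma). Gsta4 and Dus2 also lost their calls then (adjusted p = 0.0698 and 0.0523 by limma).

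Interferon-induced genes were higher on the drug in 3 of the 4 KO ezetimibe libraries. All 26 tested genes of the interferon list had positive log2 fold changes and 25 had an unadjusted p under 0.05, beside 22.9% of all genes, but only Igtp and Stat2 were called. The list median was 1.00 in KO and 1.17 in WT. The mean log2 level of the list was 7.76, 7.58 and 8.26 in KO control and 9.10, 9.28, 9.43 and 8.05 in KO ezetimibe, so replicate 4 of the ezetimibe group lay within the control range. Without that library 23 of the 26 were called, and across the 7 fits the number ran from 0 to 23. Igtp, an interferon-inducible GTPase, had 247, 299 and 626 in KO control and 2026, 1825, 3256 and 654 in KO ezetimibe (log2 fold change 2.22, SE 0.45, adjusted p = 0.0431 by limma). Stat2, which carries the type I interferon signal to the nucleus, went from 1129, 770.0 and 1067 to 1761, 2100.3, 2671 and 1361 (log2 fold change 0.97, SE 0.20, adjusted p = 0.0431 by limma). In WT the same genes had log2 fold changes of 1.68 and 0.70 that did not pass the test. Zbp1, a sensor of unusual nucleic acids, overlapped between the KO groups, with 169, 247 and 489.6 and 1087, 1415, 2624 and 414. Outside the list, Rnf213, a large interferon-induced ubiquitin ligase, was called at a log2 fold change of 1.39 (SE 0.30, adjusted p = 0.049 by limma). With the length trend removed, Rnf213 was not called (adjusted p = 0.0603 by limma). The antiviral ubiquitin ligase Trim56 was called at a log2 fold change of 1.01 (SE 0.20, adjusted p = 0.0425 by limma), and Gbp4, a guanylate-binding protein chosen after its values were seen, at a log2 fold change of 1.00 (SE 0.16, adjusted p = 0.0179 by limma).

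Promoters of the interferon list were searched for the core of the interferon-stimulated response element, GAAA repeated after 2 bases of any kind, on either strand. A match lay in the 250 upstream bases of 12 of the 18 genes with a window, and of 344 of the 10424 tested genes with a window. Of all windows, 2.98% held it. The window of Igtp (chr11:58199306-58199555, plus strand) is shown with the match in capitals.
Igtp: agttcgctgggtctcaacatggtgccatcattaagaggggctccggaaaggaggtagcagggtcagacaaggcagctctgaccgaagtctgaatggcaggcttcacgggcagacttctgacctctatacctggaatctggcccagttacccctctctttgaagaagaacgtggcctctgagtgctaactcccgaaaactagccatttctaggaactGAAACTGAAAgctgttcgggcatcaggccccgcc
The match in Igtp began 34 bases before the start.

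H2-Q10 and 3 related class I genes were called higher, of which H2-K2 is annotated as a transcribed pseudogene. Class I genes were not 1 of the lists, so the share of them called was not measured. H2-Q10, a class I heavy chain gene, had 152, 54.3 and 48.7 in KO control and 349, 409.6, 414 and 317 in KO ezetimibe (log2 fold change 2.31, SE 0.31, adjusted p = 0.00474 by limma), and its WT response was 2.42 (adjusted p = 0.000788 by limma). H2-Q6 was called at 1.21, and H2-K2, H2-Q4 and the peptide-loading gene Tapbp, chosen after their values were seen, at 0.98, 0.84 and 0.46. Class I genes are near-identical copies of each other, and reads may be split among them. C4b, a complement component, had 13, 19 and 29.2 in KO control and 77.1, 87.9, 134 and 37.3 in KO ezetimibe (log2 fold change 1.93, SE 0.35, adjusted p = 0.0271 by limma). Csta2, a stefin-family protease inhibitor gene chosen after its values were seen, had 1.62, 3.62 and 2.17 in KO control, only a few reads in each library, and 40.7, 28.9, 86.4 and 19.2 in KO ezetimibe. Its fold on the log2(value + 1) scale was 3.51 (SE 0.46, adjusted p = 0.00474 by limma), with 2.43 in WT (adjusted p = 0.0212 by limma).

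No gene of the 7 in the MHC class II list was called, though all 7 had positive log2 fold changes and the median was 1.13, against 0.19 in WT. Its mean log2 level was 9.84, 11.31 and 11.64 in KO control and 12.23, 12.04, 12.52 and 11.34 in KO ezetimibe, so replicate 1 of the control group stood low and the groups overlapped. Without that library the median was 0.62. Cd74, the class II invariant chain, had 3871, 12103 and 13267 in KO control and 22684, 20318, 27792 and 13424 in KO ezetimibe (adjusted p = 0.0578 by limma). In the T and NK cell list 14 of 15 genes had positive log2 fold changes and none was called, with a median of 0.52 in KO and 0.45 in WT. Summed normalised counts of that list ranged from 3718 to 4998 in KO control and from 5158 to 7093 in KO ezetimibe. Ptprc, the leukocyte marker CD45, chosen after its values were seen, was called and went from 490.2, 568 and 628 to 857, 882, 1018 and 791 (log2 fold change 0.66, SE 0.12, adjusted p = 0.0271 by limma). Ptprc has 18313 bases of exon, and with the length trend removed its log2 fold change was 0.43 and it was not called (adjusted p = 0.0713 by limma). The part of lymphocyte number in these results was not tested.

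Among 13 myeloid markers C1qc, a complement C1q chain made by macrophages, was called lower and none was called higher. Their summed normalised counts ranged from 1037 to 1273 in KO control and from 443 to 685 in KO ezetimibe, 11 of 13 had negative log2 fold changes, and the median was −1.06, against −0.42 in WT. C1qc had 63.3, 76.9 and 127 in KO control and 30, 26.8, 14 and 30.9 in KO ezetimibe (log2 fold change −1.77, SE 0.38, adjusted p = 0.0479 by limma). Csf1r, the receptor of macrophage colony-stimulating factor, and Cx3cr1, the fractalkine receptor, had non-overlapping groups and log2 fold changes of −1.70 and −1.89 that missed the threshold (adjusted p = 0.0644 and 0.0629 by limma). Pla2g7, a lipoprotein-associated phospholipase made by macrophages, had 60.1, 103 and 141 in KO control and 23.6, 28.9, 5.84 and 22.4 in KO ezetimibe (log2 fold change −2.38, SE 0.47, adjusted p = 0.0423 by limma). Fcgr3, Il1rn and Pilra, myeloid-expressed genes chosen after their values were seen, were called at −1.61, −1.84 and −1.90. With the length trend removed, C1qc and Fcgr3 lost their calls (adjusted p = 0.0599 and 0.0615 by limma), and without both ends of the first component the myeloid median was −0.57. Apoe fell in the same libraries as these markers, and the part of macrophage number in its fall was not tested. The chemokine Cxcl16 fell, with a log2 fold change of −0.76 (SE 0.13, adjusted p = 0.021 by limma), from 476 ± 55.1 (SD, n = 3) to 281 ± 36.9 (SD, n = 4).

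**Figure D3:**
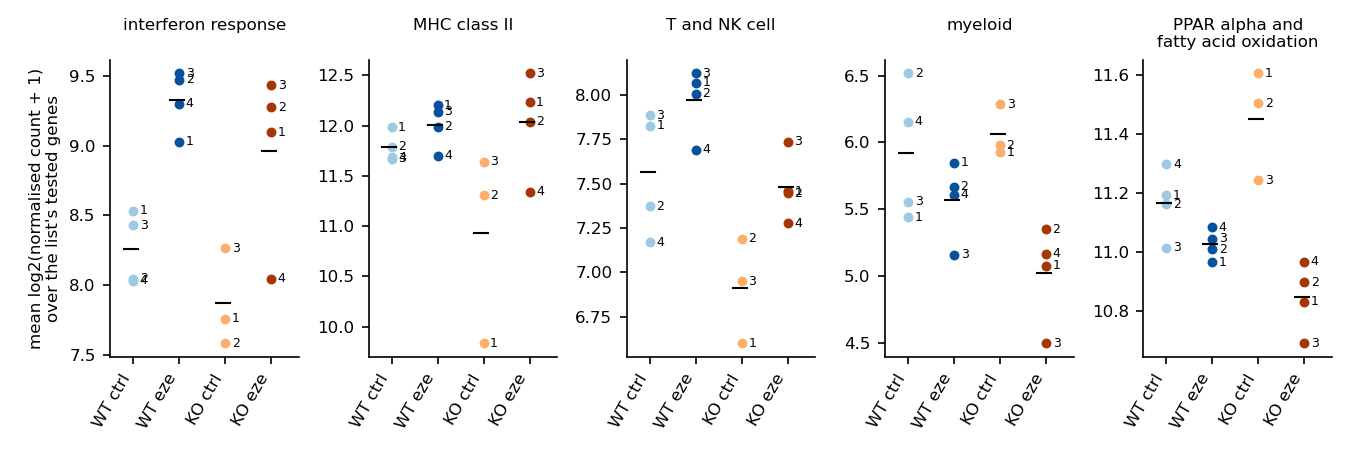
Mean log2(normalised count + 1) over the tested genes of 5 lists in each library, with replicate numbers and bars at group means. In knockout the T and NK cell, myeloid and fatty acid oxidation lists do not overlap between the diets. Ezetimibe replicate 4 lies within the control range for the interferon list, and control replicate 1 is lowest for MHC class II.

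No gene was called in the enterocyte, brush border or proliferation lists. Of 21 brush border hydrolases and transporters 20 had positive log2 fold changes with a median of 0.37 in KO and −0.09 in WT. The KO median ran from 0.24, without KO ezetimibe replicate 3, to 0.47. Treh, trehalase, and Ace, angiotensin-converting enzyme, had log2 fold changes of 0.45 and 0.58 (adjusted p = 0.0781 and 0.0752 by limma). The 18 proliferation genes had a median of 0.25 in KO and −0.26 in WT. Single libraries moved the proliferation median: it was −0.03 without KO control replicate 1, with 6 of 18 genes positive, 0.11 and 0.16 without KO ezetimibe replicates 1 and 2, 0.58 without KO control replicate 2 and 0.40 without KO ezetimibe replicate 4. Mki67, the Ki-67 antigen, had 167, 341 and 304 in KO control and 456, 478, 390.0 and 329 in KO ezetimibe, with overlap. No gene was called among the lists of stem, Paneth, goblet, enteroendocrine or tuft cells, B and plasma cells, stroma, endothelium, adipocytes or red blood cells. Summed counts of the 12 B and plasma cell genes ran from 14395 to 23706 in KO control and from 5388 to 19102 in KO ezetimibe.

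Rplp0 and 3 other ribosomal protein genes, with 1168 to 2053 bases of exon, were called lower beside the length difference between the diets described above. No list of ribosomal protein genes was made, so the share of them called was not measured. Rplp0 had 9864, 12542 and 10232 in KO control and 7601, 5795, 3949.9 and 6449 in KO ezetimibe (log2 fold change −0.90, SE 0.19, adjusted p = 0.0483 by limma). Rps2 and Rpl41 were called at −0.90 and −0.84, and Rpl10, chosen after its values were seen, at −0.55. Processed copies of ribosomal protein genes are common, so these reads may be shared. Among genes with long transcripts, Dync1h1, the dynein heavy chain, was called at 0.78, Spen, a transcriptional repressor, at 0.81 and Tln1, talin, at 0.44, all chosen after their values were seen. Resf1, a repressor of retroelements, was called at 1.15. With the length trend removed Rplp0, Rps2, Rpl41, Rpl10, Dync1h1, Tln1 and Resf1 were no longer called, and Spen was. In all, 21 called genes named here lost their calls in that fit, with the others given beside their results.

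Naip6, Ccne2, Fosb, Kansl1 and Bco1 were among the genes with the smallest p for a difference between the genotypes. Naip6, a NAIP-family inflammasome gene with near-identical neighbours, had 2013, 1987 and 2322 in KO control and 4123, 4995, 4504 and 4355 in KO ezetimibe (log2 fold change 1.09, SE 0.16, adjusted p = 0.00953 by limma), with a WT response of −0.01. Its KO control libraries were below all WT libraries, which had 2847 to 3982 on the control diet and 2939 to 4964 on ezetimibe. Ccne2, cyclin E2, had 113, 128 and 153 and 309, 339, 439 and 245 (log2 fold change 1.32, SE 0.20, adjusted p = 0.0135 by limma), with 0.03 in WT. Fosb, an immediate early transcription factor gene and the 1 called gene of 13 in that list, had 88.5, 68.8 and 109 and 260.2, 363, 367 and 214 (log2 fold change 1.74, SE 0.36, adjusted p = 0.0475 by limma). In WT its control libraries spread from 147.7 to 518 and the response was −0.78. The WT ezetimibe libraries had 130 to 187 for Fosb, so its KO control libraries were below all WT libraries. Kansl1, a subunit of a histone acetyltransferase complex, had 0.46 in KO and −0.16 in WT. Its KO control libraries (375, 388 and 423) were also below all WT libraries (426 to 550). With the length trend removed, Fosb and Kansl1 were not called in KO (adjusted p = 0.0567 and 0.0635 by limma). Bco1, which cleaves beta-carotene to retinal, had 26.8, 31.7 and 44.4 in KO control and 61, 92.2, 146 and 76.7 in KO ezetimibe, a log2 fold change of 1.38 that was not called (adjusted p = 0.084 by limma), and −1.43 in WT. The WT groups overlapped for Bco1, with 39.1 to 181 in the control libraries and 22.5 to 46.5 in the ezetimibe libraries. For Bco1 and Ccne2 the KO control libraries overlapped the WT libraries.

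Whether the responses differed between the genotypes was tested by the interaction term. limma called 0 of 14299 genes, with 1004 at an unadjusted p under 0.05 and a smallest adjusted p of 0.681. edgeR and voom also called 0, while DESeq2 called the same 5 genes described above, Naip6, Ccne2, Fosb, Kansl1 and Bco1. Without WT ezetimibe replicate 3 limma called Naip6 alone. Side by side, 94 of the 104 genes called in KO had the same sign in WT (90.4%), against 8952 of all 14299 (62.6%), and 18 were called in WT too. All 31 genes called in WT (0.217%) had the same sign in KO, and 30 reached an unadjusted p under 0.05 there. The KO response was larger than the WT response for 90 of the 104, which were chosen for passing the test in KO. Over all 14299 genes it was larger for 10052. The medians of both enzyme lists were lower in KO: that of the first was 0.77 in KO and 1.10 in WT, and that of the second 0.53 and 0.75. Msmo1 and Nsdhl had the opposite order, at 1.12 and 0.96 in KO and 0.87 and 0.82 in WT. Taken gene by gene, the median difference (KO minus WT) was −0.18 in the first list and −0.05 in the second. An unadjusted limma p under 0.05 for this difference was reached by 1 gene of the first list and 0 of the second. It was reached by 9 of 21 genes of the fatty acid oxidation list and 3 of 7 of MHC class II. The brush border list had 5 of 21, proliferation 5 of 18, interferon 1 of 26, and T and NK cells 1 of 15. None of these genes passed adjustment. Mvk had a log2 fold change of 0.77 in KO and 1.33 in WT (unadjusted limma p of the difference = 0.00342, adjusted p = 0.681), from KO control libraries of 226 ± 15.3 (SD, n = 3) and WT control libraries of 149.7 ± 15.7 (SD, n = 4). Both ezetimibe groups ended close together, at 387 ± 47 (SD, n = 4) and 378 ± 28 (SD, n = 4).

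**Figure D4:**
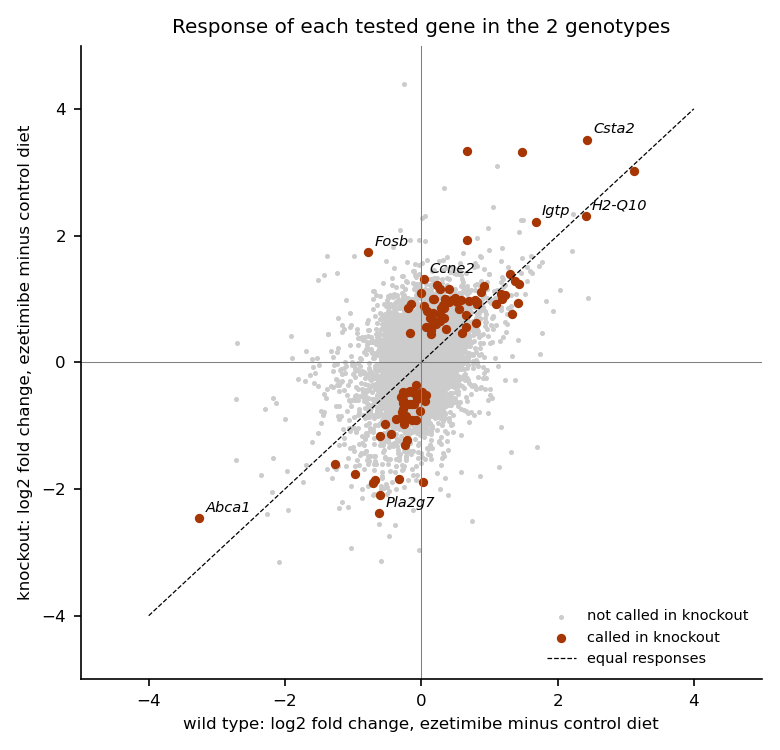
Each point is a tested gene, with its log2 fold change (ezetimibe minus control diet) in wild type on the horizontal axis and in knockout on the vertical axis, and the 104 genes called in knockout in colour. Of these 94 lie in the quadrants of equal sign, and Fosb is among the 10 that do not.

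**Figure D5:**
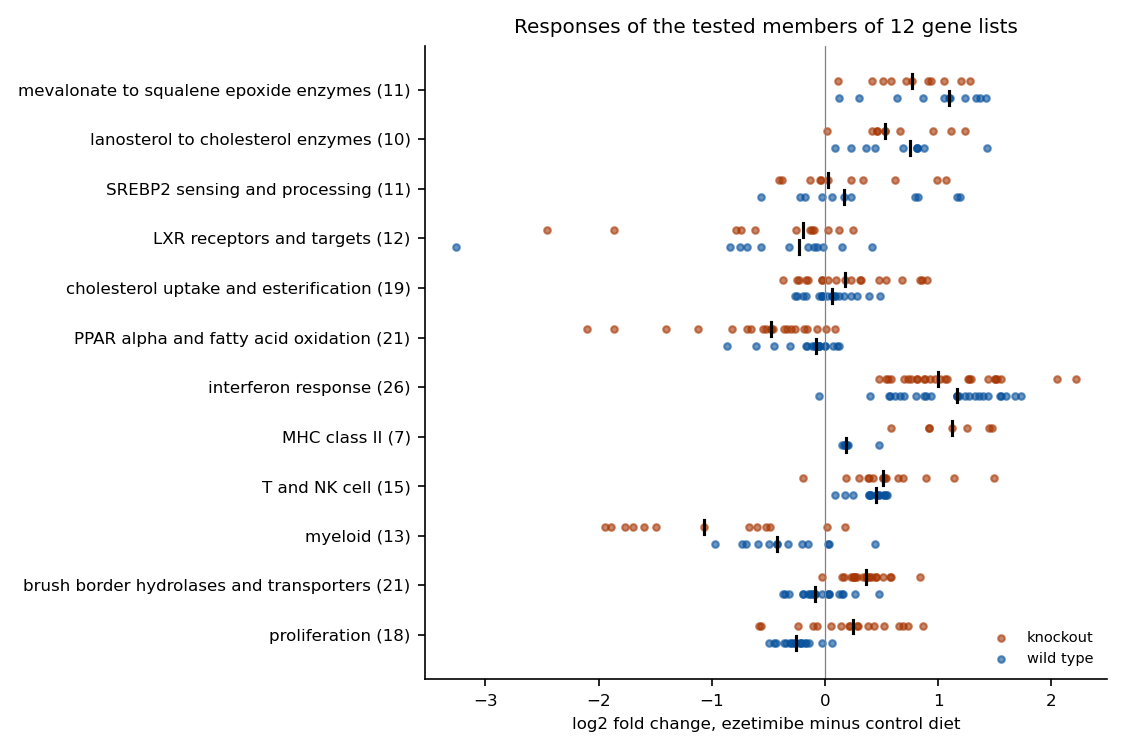
Each point is a tested gene of 1 of 12 lists, at its log2 fold change (ezetimibe minus control diet) in knockout and in wild type, and bars are medians, with the number of genes in parentheses. The knockout medians run from −1.06 for myeloid markers to 1.13 for MHC class II, and the wild-type medians of those lists are −0.42 and 0.19.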

How the data were processed

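Per the labels' protocols, TRIzol RNA of the frozen tissue went into libraries by the NEBNext Ultra II RNA kit. FastQC, STAR 2.6.0c, DESeq2 and the mm10 build are named in the submitters' processing notes. Which counter, strand setting and annotation were used is not stated there, so a gene and its antisense partner cannot be told apart. The deposited table holds a signal, gene counts that the authors divided by DESeq2 size factors, per the file headers. In every library 100% of values were whole multiples of 1 read (tolerance 0.001), so whole reads were recovered for the count tests. Of 26844 identifiers 99.93% matched GENCODE M21.

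Genes at 10 or more in 3 or more of the 15 libraries were tested with limma 3.58.1 (mean-variance trend) on log2(value + 1), a scale that understates changes of low genes. The fit gave each group a mean and shared 1 estimate of the spread. P-values were Benjamini-Hochberg adjusted over all genes tested. The test was checked on simulated data, in which genes varied independently and no length trend was present. That check cannot show how the test behaves where libraries shift over many genes at once or with gene length. Alternatives were other pseudocounts, filters and scalings, robust moderation, the KO libraries alone, the replicate number as a block, edgeR 4.0.16, DESeq2 1.42.0 and limma-voom on recovered reads, and each library left out. Removing the length trend and leaving out 2 libraries together were added after the data were seen. Same-numbered KO libraries did not deviate together (r = −0.24, 0.07 and 0.10), so the numbers were not taken as pairs. Whether same-numbered WT libraries deviate together was not tested.

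The 38 gene lists and the rule for named genes were chosen with earlier results of these data known. The rule takes Npc1l1 and the Gramd1 genes, the 15 called genes with the highest and the 15 with the lowest fold change where a KO group mean reached 50, called list members, up to 4 list members with the smallest p, and the 6 smallest interaction p. Other list members are given for completeness of their list. The lists were described by counts and medians, with no test of a list. Counts and medians of a list cover all its tested members, of which a few are not reported here by name.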

Additional observations from a re-analysis of the deposited data

Results flagged for a closer look

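Of 95 genes and 38 lists examined, 8 values stood apart from the other 3 libraries of the KO ezetimibe group by more than a Dixon test at 95% allows, and chance flags about 1 group in 20. KO ezetimibe replicate 3 was the highest library for Gramd1a (243 normalised counts), Gramd1b (2086), Pmvk (618) and the mean log2 level of the distal small intestine list (11.71). KO ezetimibe replicate 4 was the lowest for Rnf213 (2061 normalised counts) and the highest for the tuft cell list (7.10). KO ezetimibe replicate 1 was the lowest for the cholesterol uptake and esterification list (9.58), and replicate 2 the lowest for the clock output list (7.71). The KO control group, with 3 libraries, was not examined this way.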

How the results depend on the processing

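The number of genes called in KO was 104. It was 54 with no filter, 330 with a mean of at least 50, 16 with the KO libraries alone, 41 with limma-voom, 1155 with DESeq2, 60 with the length trend removed and 3 without both ends of the first component. Without 1 KO library it ranged from 5 to 456, and without 1 WT library, which enters only through the shared spread, from 29 to 170. In WT 31 genes were called, with 93 by DESeq2 and 17 to 34 without 1 WT library and 29 to 60 without 1 KO library. The interaction had 0 calls, with 5 by DESeq2 and 0 to 1 without 1 library. With the replicate number as a block, 1915 genes were called in KO, among them all 104, and 54 in WT. Since same-numbered KO libraries did not deviate together, and WT libraries were not checked for this, the block fit was given no weight. Gramd1c changed sign without 1 library, with log2 fold changes from −0.37 to 0.0095, and no other gene of the text did under any alternative. The cause of these shifts was not tested. With 3 and 4 libraries a group, small changes may have been missed, and a gene that was not called is not shown to be unchanged.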

Other observations

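Lists not described above held no called gene in KO. The median of 4 red blood cell genes was −0.94 (log2, −0.17 in WT), but it ran from −1.55 without KO ezetimibe replicate 4 to −0.47 without KO ezetimibe replicate 3 and was −0.30 without both ends of the first component. The summed counts of these genes ran from 93 to 157 in KO control and from 23.4 to 233 in KO ezetimibe. All 12 core clock genes had positive log2 fold changes, with a median of 0.34 in KO that fell to 0.23 without KO ezetimibe replicate 3. The 7 clock output genes had a median of 0.29 in KO and −0.31 in WT.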
